A study of Mus musculus with 4 samples.

Results

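Finer cluster 0 is the largest group of microglia that the authors' clustering of brain myeloid cells separated at its finer setting, and its markers are P2ry12, Crybb1, Maf and Slc2a5. Its members are every cell that the deposited annotation numbers 0 at that setting, which came to 16671 of 74758 cells, between 38 and 1929 in each of 20 mice. Microglia are the resident macrophages of the brain. In the undisturbed brain they keep a homeostatic program that includes the ADP receptor P2ry12, which steers their processes toward injury, the fractalkine receptor Cx3cr1 and Tmem119, and this program is maintained by TGF-beta signalling and by transcription factors such as Sall1, Maf and Mef2. Around amyloid plaques microglia lower these genes and raise a plaque-associated (DAM) program of lipid and lysosomal genes, a transition for which the lipid receptor Trem2 and its adaptor Tyrobp are needed.

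The mice fell into 5 groups of 4. All carried the human transferrin receptor knock-in (hTfR KI HOM in the labels, written TfRmu/hu by the study), so that an antibody transport vehicle (ATV) that binds this receptor can be carried across the blood-brain barrier. WT mice had no other allele and AppSAA mice (APP-SAA HOM) also carried a knock-in App gene with familial Alzheimer's disease mutations, without overexpression from a transgene promoter. WT mice received either the control ATV (ATV:DNP02 in the labels, isotype control ATV in the design text, here ATV:ISO) or ATV:4D9, in which 4D9 is an antibody that activates TREM2. AppSAA mice received ATV:ISO, 4D9 without the transport vehicle, or ATV:4D9. The dose label was 10, in mg per kg by the study's methods, and the cells were taken 24 h later from 19 males and 1 female, the WT ATV:ISO mouse of pool 4. The cells were captured in 4 pools, so that the tagged cells of the mice of 1 pool were captured together. The 5 groups contributed a mouse apiece to each pool, and sample tags told the mice apart. The labels give cortex and hippocampus with a sort on CD11b in one place and cortex with a sort on Cd45 and Cd11b in another, and the age of the mice was not used here.

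Cluster 0 was the cluster with the highest level of each of its 4 markers. Counts were summed over the cluster's cells in each mouse and are given as CPM, the counts of a gene scaled to a common total, where a count is a unique molecular identifier (UMI), that is, 1 captured transcript molecule. P2ry12 (chr3:59216272-59262871, minus strand, GRCm38) averaged 2829 ± 470 CPM (SD, n = 20 mice) in cluster 0, 2273 ± 376 in cluster 2, the next highest, and 381 ± 98.2 in cluster 6, the lowest. The means of clusters 0 and 2 rest on all 20 mice, those of cluster 6 on 12 and of cluster 8 on 17, the mice with at least 20 cells there. Maf (chr8:115682942-115707794, minus strand), a transcription factor of the microglial identity program, averaged 753 ± 172 CPM in cluster 0, 557 ± 139 in cluster 2 and 129 ± 44.9 in cluster 8. Crybb1 (chr5:112255815-112269585, plus strand), a crystallin gene that microglia express as they mature, averaged 394 ± 88.9 CPM in cluster 0, 317 ± 86.2 in cluster 2 and 19.6 ± 5.52 in cluster 6. Slc2a5 (chr4:150119283-150144169, plus strand), which encodes the fructose transporter GLUT5, averaged 357 ± 44.0, 281 ± 41.6 and 43.6 ± 9.33 CPM in the same 3 clusters. The clustering used the expression of these cells, so all values that set cluster 0 beside other clusters are a description and carry no test.

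**Figure D1:**
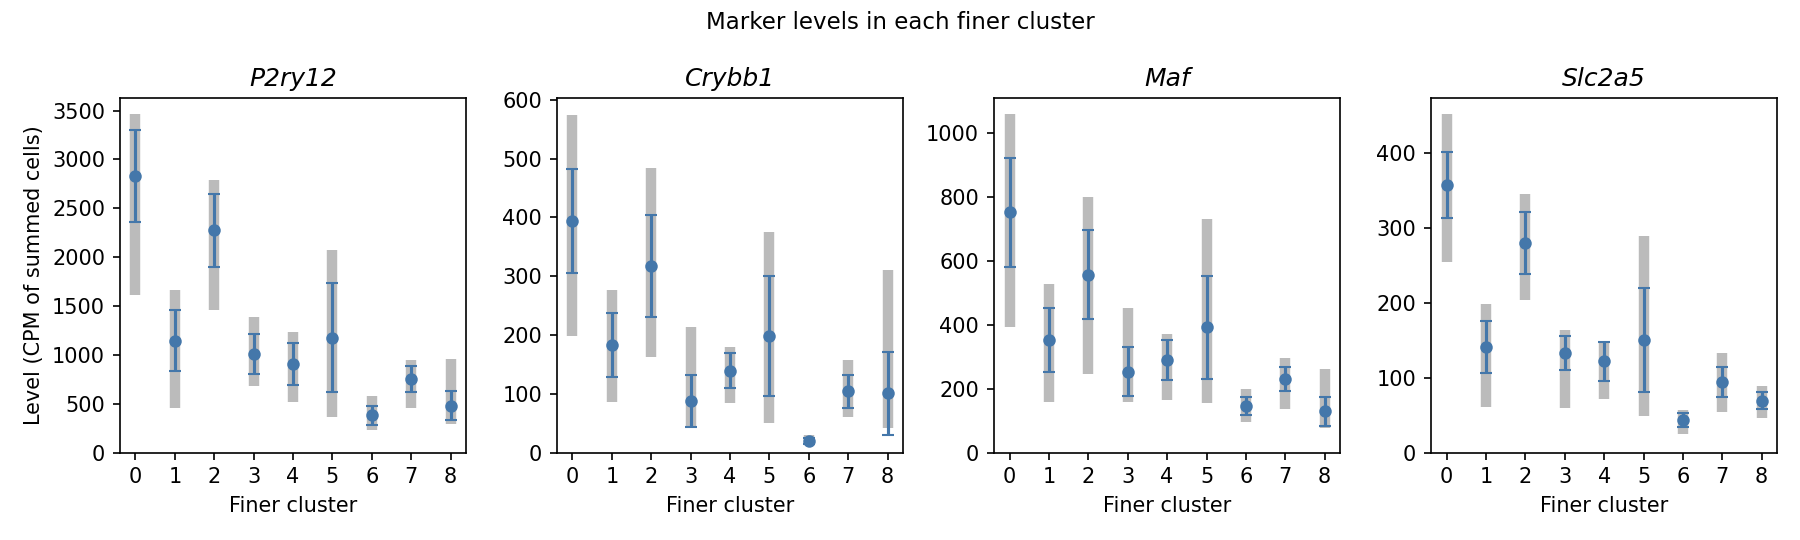
Levels of the 4 markers in each finer cluster, in CPM on the vertical axis. Points are means over mice, error bars the SD and grey bars the range from the lowest to the highest mouse; cluster 0 has the highest mean of each marker, and its range overlaps that of cluster 2 (P2ry12, 2829 against 2273 CPM).

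The sorted cells held few markers of other cell types in cluster 0. Border macrophage genes (Mrc1, Cd163, Lyve1, Pf4, F13a1, Ms4a7, Cbr2 and Stab1) summed to 120 to 273 CPM per mouse, and 181 CPM over all cells of the cluster came from Stab1, which was also 0.70 higher on the log2 scale in cluster 0 than in the other cells. The 8 monocyte and dendritic cell markers summed to 3.93 to 14.2 CPM, the 6 neutrophil markers to 4.74 to 23.8, the 5 oligodendrocyte markers to 3.43 to 47.0, the 5 astrocyte markers to 1.47 to 13.4, the 5 neuronal markers to 0 to 3.35 and the 5 endothelial and mural markers to 6.87 to 27.8. Lymphocyte markers summed to at most 0.970 CPM.

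Cluster 0 made up most of the sorted cells in control mice, less in AppSAA mice and almost none after ATV:4D9. Its share was 54.3, 59.1, 59.5 and 60.1% in the WT ATV:ISO mice of pools 1 to 4, and 32.9, 29.4, 31.5 and 30.7% in the AppSAA ATV:ISO mice. It was 33.4, 33.9, 29.3 and 25.9% in the AppSAA 4D9 mice. After ATV:4D9 it was 3.15, 3.95, 1.99 and 2.08% in WT mice and 1.17, 4.98, 1.57 and 2.57% in AppSAA mice. No mouse given ATV:4D9 came near the lowest value of the other 12 mice, 25.9%, and the AppSAA mice given ATV:ISO or 4D9 all lay below every WT ATV:ISO mouse. The Wilson 95% intervals, which cover counting error only, ran from 0.894 to 1.53% for the lowest share and from 58.3 to 61.8% for the highest.

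The mean share fell from 58.3 ± 2.66% in WT ATV:ISO mice to 31.1 ± 1.44% in AppSAA ATV:ISO mice (SD, n = 4 each), a difference of -27.1 percentage points (two-sided exact permutation test, p = 0.0286, 0.0429 after Benjamini-Hochberg adjustment over 6 comparisons). With ATV:4D9 it fell to 2.79 ± 0.933% in WT mice, a difference of -55.5 points, and to 2.57 ± 1.71% in AppSAA mice, -28.6 points from ATV:ISO and -28.1 points from 4D9. These 3 differences had the same exact permutation p of 0.0286 (adjusted 0.0429), which is the smallest that 4 against 4 mice can give, and each was lower in 4 of 4 pools. Exchanging labels within pools only, the smallest possible p was 0.125, and all 4 differences had it. Given without the transport vehicle, 4D9 left a mean of 30.6 ± 3.76%, -0.508 points from ATV:ISO (exact permutation p = 0.83, adjusted 0.857), with differences between -4.83 and 4.42 points over the pools. AppSAA and WT mice given ATV:4D9 differed by -0.216 points (exact permutation p = 0.857, adjusted 0.857), with pool differences from -1.98 to 1.04.

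**Figure D2:**
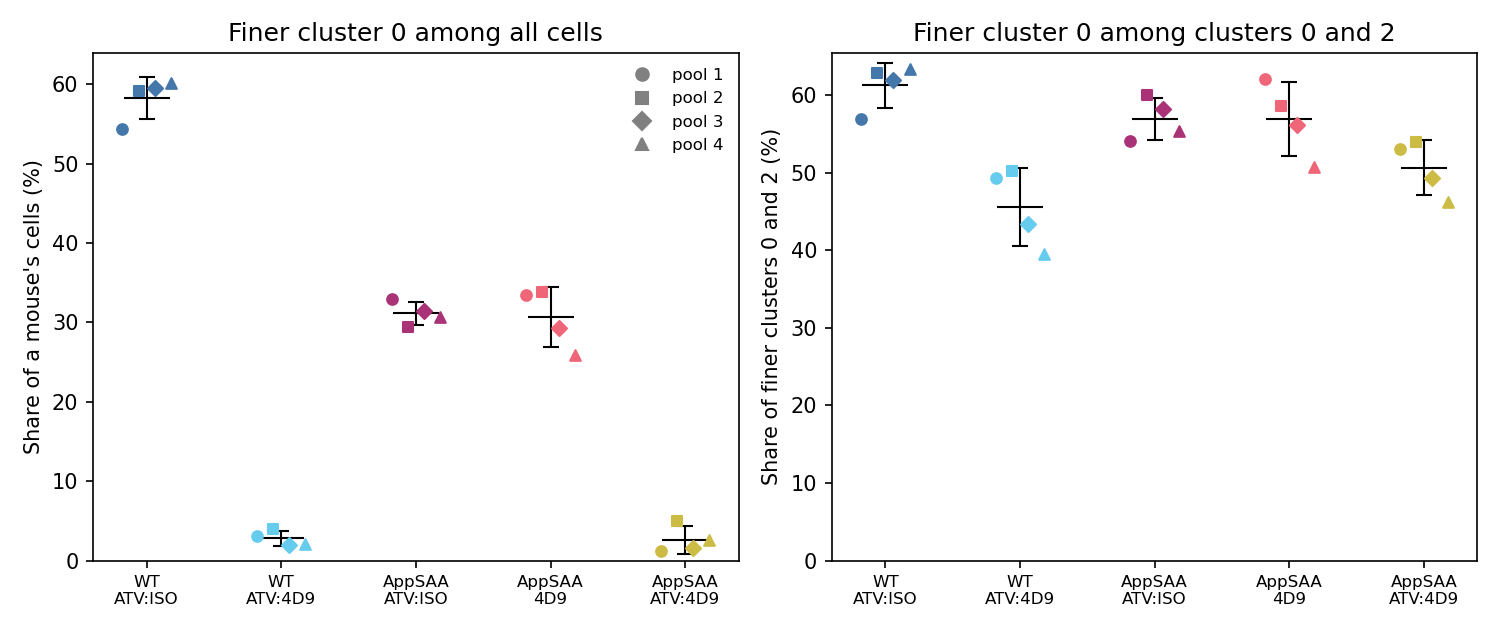
Share of finer cluster 0 in percent, among all cells of a mouse (left) and among its cells of finer clusters 0 and 2 (right), by group; each point is 1 mouse, marked by pool, with the group mean and SD. On the left the WT ATV:ISO mice lie between 54.3 and 60.1%, the AppSAA ATV:ISO and 4D9 mice between 25.9 and 33.9%, and all 8 ATV:4D9 mice between 1.17 and 4.98%.

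The drop with ATV:4D9, counted in percentage points within pools, was -55.5 ± 3.13 in WT mice and -28.6 ± 3.10 in AppSAA mice (SD, n = 4 pools each). These drops differed by 26.9 points (exact permutation of the 8 within-pool drops as unpaired, p = 0.0286). The 2 drops of a pool share it, and with exchange within pools only p was 0.125, the smallest possible, with a smaller drop in AppSAA mice in 4 of 4 pools (19.4 to 30.7 points). The share cannot fall below 0, so a drop in AppSAA mice could not exceed their level with ATV:ISO, 31.1% on average, and the share left was 0.0479 of that with ATV:ISO in WT mice and 0.0827 in AppSAA mice. The absolute number of cells per brain was not measured, so a share gives no count of cells lost.

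Cluster 2 had the next highest level of each of the 4 markers, and of clusters 1, 2 and 3, compared with cluster 0 across all genes, it had the fewest genes past 2-fold. Cluster 0 held 61.2 ± 2.95% of the cells of the pair in WT ATV:ISO mice, 56.9 ± 2.69% in AppSAA ATV:ISO mice, 56.9 ± 4.77% in AppSAA 4D9 mice, 45.6 ± 5.07% in WT ATV:4D9 mice and 50.6 ± 3.55% in AppSAA ATV:4D9 mice. WT ATV:4D9 and WT ATV:ISO mice did not overlap, at a difference of -15.7 points, nor did AppSAA ATV:4D9 and AppSAA ATV:ISO mice, at -6.29 points. Each of these differences had an exact permutation p of 0.0286, which was 0.0857 after adjustment over 6 comparisons and so missed the 0.05 threshold. Within pools, 5 of the 6 differences had 1 sign in 4 of 4 pools, all but that of 4D9 from ATV:ISO in AppSAA mice. These included AppSAA against WT mice given ATV:ISO (-7.96 to -2.77 points) and given ATV:4D9 (3.69 to 6.74 points), and each had the smallest p that exchange within pools can give, 0.125.

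The number of UMIs per cell differed little between groups in cluster 0 and more in the other cells of the same mice. The median UMIs per cluster 0 cell averaged 7019 ± 637 in WT ATV:ISO mice, 7141 ± 526 in AppSAA ATV:ISO mice, 7355 ± 606 in AppSAA 4D9 mice, 7430 ± 775 in WT ATV:4D9 mice and 7006 ± 1323 in AppSAA ATV:4D9 mice. None of the 6 differences, which lay between -425 and 411 UMIs, passed the threshold (exact permutation over mice without regard to pool, adjusted p = 0.857 for all). Within pools, AppSAA 4D9 mice had 63 to 475.5 more UMIs per cell than AppSAA ATV:ISO mice in 4 of 4 pools (exact p = 0.125, the smallest possible), and the other 5 differences did not have 1 sign in all pools. In the other cells of those mice the median averaged 8629, 11369, 11954, 15594 and 15784 UMIs in the same order, and in cluster 2 between 8448 and 9178. The lowest cluster 0 median, 5123 UMIs, was in the AppSAA ATV:4D9 mouse of pool 1.

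**Figure D3:**
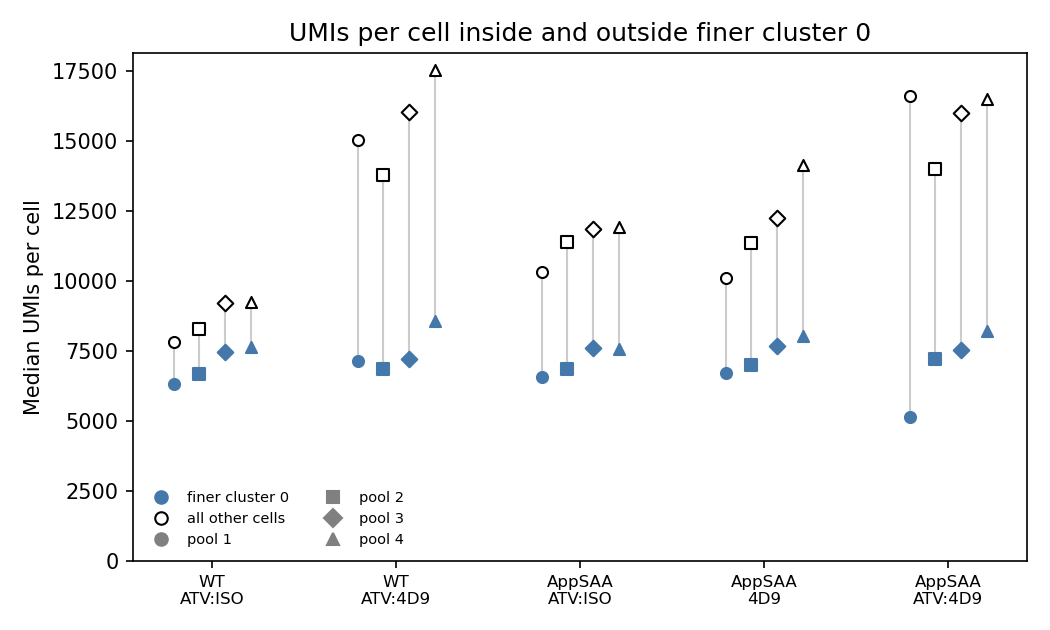
Median UMIs per cell in each mouse, by group and marked by pool, for cells of finer cluster 0 (filled) and all other cells (open), with a line joining the values of 1 mouse. Cluster 0 has group means from 7006 to 7430 UMIs, while the other cells rise from a mean of 8629 in WT ATV:ISO mice to 15784 in AppSAA ATV:4D9 mice.

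Set beside all other cells of the same mouse, cluster 0 had higher homeostatic genes and lower cell cycle, immediate early, cytokine, interferon and plaque-associated genes. Of 11780 genes, 36 (0.306%) were at least 2-fold higher on average and higher in all 20 mice, and 465 (3.95%) were at least 2-fold lower and lower in all 20 mice. At any size, 784 (6.66%) were higher and 1028 (8.73%) lower in all 20 mice, the shares against which the counts of list members stand. These ratios are scaled so that most genes stay level (TMM). With UMI totals alone as the scale, the median of all genes moved up by 0.19 on the log2 scale and the counts became 109 higher and 340 lower at 2-fold, and 1573 and 557 at any size. The count of 2-fold higher genes also moved with the cells and mice used. It was 18 with cells of 1000 to 25000 UMIs, 146 in AppSAA ATV:ISO mice alone (20 of the 36 among them) and 6 in WT ATV:ISO mice alone (0 of the 36). In a group alone the same sign was needed in 4 mice only, a looser rule than in 20. The 4 markers had mean log2 ratios of 1.02 ± 0.43 (P2ry12), 0.92 ± 0.28 (Maf), 1.06 ± 0.44 (Crybb1) and 1.03 ± 0.48 (Slc2a5), higher in 20 of 20 mice (SD over mice).

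The 10 genes with the largest ratios were expressed at low levels. Sema4b (chr7:80186841-80226527, plus strand), a transmembrane semaphorin, was at 17.8 CPM in cluster 0 and 6.65 CPM in the other cells (log2 ratio 1.42 ± 0.46). Tmem204, a membrane protein of cell junctions, was at 23.2 and 8.52 CPM (1.47 ± 0.67). Il7r, the interleukin 7 receptor, was at 39.4 and 16.8 CPM, Ltb, a lymphotoxin subunit, at 19.7 and 8.10 CPM, and Pde2a, a phosphodiesterase of cyclic nucleotides, at 35.3 and 15.4 CPM. The others of the 10 were Tmem44, Tcp11l2, Fcrl1, Gm10790 and Ggt5, with log2 ratios between 1.13 and 1.38. The size of such ratios varied with the group. The mean P2ry12 ratio was 0.33 in WT ATV:ISO mice, 0.94 in AppSAA ATV:ISO mice, 0.96 in AppSAA 4D9 mice, 1.42 in WT ATV:4D9 mice and 1.45 in AppSAA ATV:4D9 mice.

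Homeostatic surface and secreted genes were higher in all 20 mice for 23 of 28, with a median log2 ratio of 0.58 beside -0.07 for all genes tested, or for 25 of 28 with UMI totals as the scale. Tmem119 was at 1417 CPM in cluster 0 and 853 CPM in the other cells (log2 ratio 0.61). Cx3cr1 was at 4641 and 3022 CPM (0.46). The abundant protease inhibitor Cst3 (0.44), the lectin Siglech (0.72), the lysophospholipid receptor Gpr34 (0.50) and the CSF1 receptor Csf1r (0.38) were higher by smaller or similar amounts. Sparc, Fcrls, Gpr165, Sall3 and Serpine2 were the 5 that were not higher in every mouse.

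Nucleotide sensing went the same way for 6 of 9 genes. Among receptors, P2ry13 was at 494 CPM in cluster 0 and 282 CPM in the other cells (log2 ratio 0.66), and P2ry6 (0.49), P2rx7 (0.55) and the adenosine receptor Adora3 (0.71) had positive mean ratios. The ectonucleotidase Entpd1, which breaks down ATP and ADP, had a ratio of 0.66, and the ATP-gated channel P2rx4 was lower at -0.25.

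Transcription factors of microglial identity did not move together. Sall1 was at 376 CPM in cluster 0 and 211 CPM in the other cells (log2 ratio 0.69) and Mef2a had a ratio of 0.58, while Mef2c was at 0.21, Cebpa was at -0.19 and Tgif1 at -1.05. Over the list, 3 of 14 were higher and 3 lower in all 20 mice, with a median of 0.06. Of the 3 lower, 2 were Jun and Klf2, which are also on the immediate early list. With UMI totals as the scale the counts were 6 higher and 2 lower, with a median of 0.26. TGF-beta ligand, receptor and SMAD genes had a median of -0.01, which became 0.18 with UMI totals as the scale, and 3 of 12 were higher and 0 lower in all 20 mice, or 4 and 0 with UMI totals. The receptor gene Tgfbr1 was higher (0.43) and the inhibitory Smad7 was at -0.17. The receptor Trem2 itself was higher in 9 of 20 mice (mean log2 ratio -0.32) and Tyrobp was at -0.53, while Syk (0.51) and the phosphatase gene Inpp5d (0.44), which act below them, had positive ratios. Over this receptor and signalling list 2 of 13 were higher and 1 lower in all 20 mice, with a median of 0.18, or 5 and 0 with UMI totals.

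Most of the 10 lowest ratios belonged to genes of dividing cells, among them Mki67, a marker of cycling cells, at 3.24 CPM in cluster 0 and 57.4 CPM in the other cells (log2 ratio -4.18 ± 1.86). Of 33 cell cycle genes tested, 31 were lower in all 20 mice, with a median of -2.82, or 25 with UMI totals as the scale. Hmmr, Hist1h1b, Pbk, Ube2c, Knl1, Esco2 and Cenpm, all of them genes of DNA replication or mitosis, were also among the 10 lowest. The others were the transcript Gm17056, which had the lowest ratio of all (-5.68), and the chemokine Cxcl14 (-4.13).

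Interferon-stimulated, plaque-associated and glycolysis genes were lower for most members, and the other metabolic lists for fewer. Interferon-stimulated genes were lower in all mice for 22 of 23 (median -1.98), the exception being Stat2. Cxcl10, a chemokine induced by interferon, was at 93.5 CPM against 875 CPM (log2 ratio -2.50). Plaque-associated genes were lower for 21 of 31 (median -1.07). The cystatin gene Cst7 was at 133 CPM in cluster 0 and 1054 CPM in the other cells (-2.69), Apoe had a ratio of -1.88, the lipoprotein lipase gene Lpl of -3.34 and Clec7a, which encodes dectin-1, of -2.46. Glycolysis genes were lower for 11 of 16 (median -1.02), with Gapdh at -1.16 and Pkm at -1.33, and nuclear oxidative phosphorylation genes for 11 of 37 (median -0.49). Ribosome biogenesis genes were lower for 8 of 20 (median -0.60), cholesterol synthesis genes for 3 of 19 (-0.61), mitochondrially encoded genes for 5 of 13 (-0.40) and MHC class II genes for 2 of 6 (-1.41). With UMI totals as the scale, the counts were 20 for interferon-stimulated, 18 for plaque-associated and 11 for glycolysis genes. They were 2 for nuclear oxidative phosphorylation, 3 for ribosome biogenesis, 1 for cholesterol synthesis and 1 for mitochondrially encoded genes, so most of the calls in these 4 lists rest on the scale. The list of quiescence genes had no common direction, with 3 of 18 higher, 4 lower and a median of 0.03. Of the 4 lower, Btg2 and Klf2 are also on the immediate early list.

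**Figure D4:**
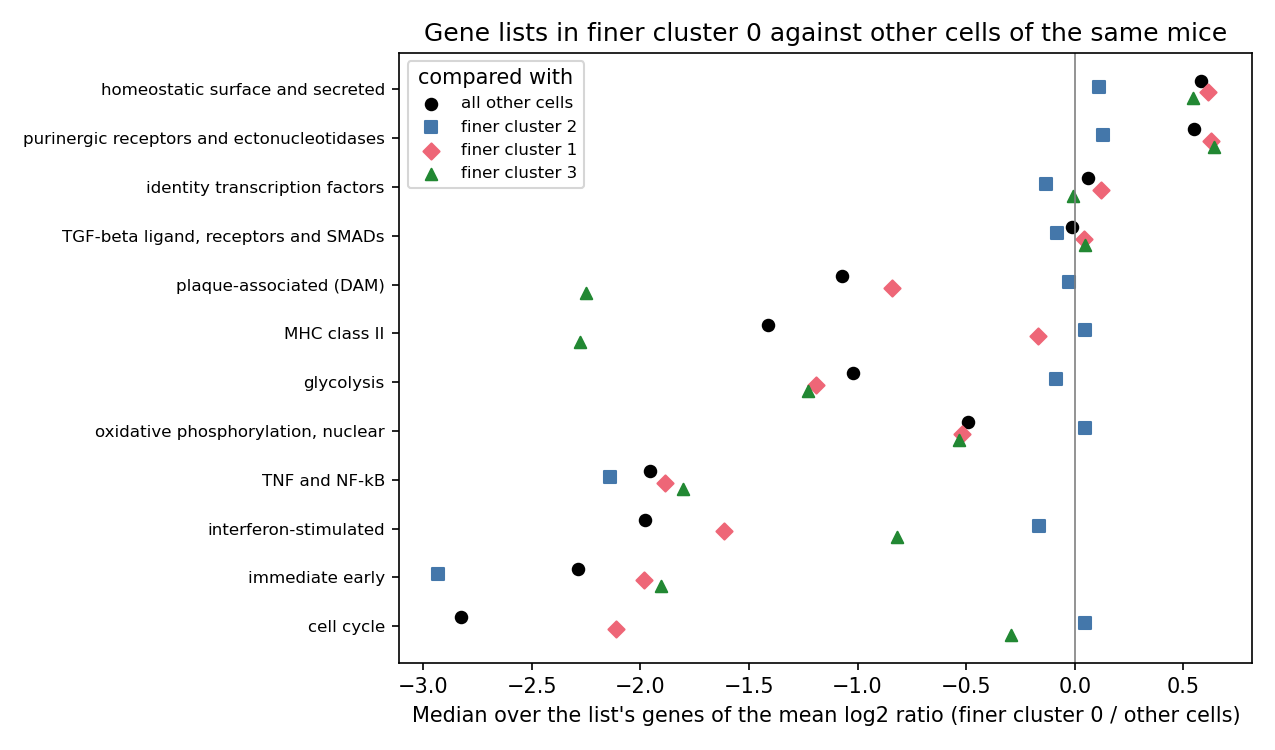
Median log2 ratio of each gene list in finer cluster 0 against all other cells and against finer clusters 1, 2 and 3 of the same mice. Homeostatic genes have a median of 0.58 against all other cells and 0.11 against cluster 2; immediate early genes lie at -2.29 and -2.93, and plaque-associated genes at -1.07 and -0.03.

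Against cluster 2 the larger differences were downward. Of 11179 genes, 0 (0%) were 2-fold higher in cluster 0 and 123 (1.1%) were 2-fold lower, each with the same sign in all 20 mice, or 1 and 112 with UMI totals as the scale. At any size 109 (0.975%) were higher and 338 (3.02%) lower in all 20 mice, and with UMI totals this balance turned, to 371 higher and 241 lower. The genes just below the 2-fold limit on the higher side were 1700012D14Rik (15.0 and 7.56 CPM, log2 ratio 0.96), Gm4258 (0.86), Zbtb26 (0.82) and A530088E08Rik (0.80). Homeostatic genes had a median of 0.11 with 7 of 28 higher and 1 lower in all mice. With UMI totals the median was 0.20, with 18 of 28 higher and 1 lower. P2ry12 (0.23 ± 0.09), Maf (0.36 ± 0.13) and Slc2a5 (0.27 ± 0.12) were among the genes higher in 20 of 20 mice. Crybb1 was higher in 19 of 20 (0.24 ± 0.21). Among the 9 nucleotide-sensing genes 2 were higher and 0 lower in all 20 mice (median 0.13), or 3 and 0 with UMI totals. The Trem2 receptor and signalling list had 0 of 13 on either side (median 0.01), or 3 higher and 0 lower with UMI totals. Of 31 plaque-associated genes 5 were lower and 0 higher in all 20 mice, or 2 and 3 with UMI totals. Plaque-associated genes (median -0.03, 0.06 with UMI totals), cell cycle genes (0.04), interferon-stimulated genes (-0.16), glycolysis genes (-0.09) and oxidative phosphorylation genes (0.05) stayed close to the median of all genes, 0.01.

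Immediate early genes, which cells transcribe within minutes of a stimulus and without new protein synthesis, were lower in cluster 0 than in cluster 2 for 19 of 19 in all 20 mice, with a median log2 ratio of -2.93. Fos was at 393 CPM in cluster 0 and 4743 CPM in cluster 2 (-3.69 ± 0.38), Atf3 at 141 and 1928 CPM (-3.86 ± 0.37), and Klf2 at 83.4 and 1155 CPM (-3.93 ± 0.61). Jun was at 1244 and 6571 CPM (-2.49), and Ier2 at 94.7 and 1148 CPM (-3.68). Egr3 was at 4.17 and 72.7 CPM (-4.28 ± 0.97), and Fosb (-3.34), Nr4a1 (-2.93), Junb (-2.13), Jund (-2.12) and Zfp36 (-2.24) went the same way. Gm17056 (0.446 and 13.4 CPM, -4.32) and Fam71a (2.04 and 34.5 CPM, -4.12), which are not on this list, had ratios about as low as that of Egr3. Cytokine and NF-kB genes were lower for 14 of 18 (median -2.14), with the exceptions Rel, Nfkb1, Cxcl2 and Ccl2. The chemokine Ccl4 was at 566 CPM in cluster 0 and 3113 CPM in cluster 2 (-2.54), the NF-kB inhibitor gene Nfkbia at 299.6 and 1643 CPM (-2.54), and Tnf (-2.13) and Il1b (-2.94) followed. The same lists were lower against all other cells, by a median of -2.29 for immediate early genes (18 of 19, all but Klf4) and -1.96 for cytokine and NF-kB genes (16 of 18, all but Rel and Nfkb1), or 15 and 14 genes with UMI totals as the scale. Of the 14 identity factors, 5 were lower than in cluster 2 in all 20 mice, among them Jun and Klf2, which are also on the immediate early list, Cebpa (-0.93) and Tgif1 (-1.40), and 1, Maf, was higher.

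Promoter stretches of 5 immediate early genes are shown here because all 19 genes of this list were among the 123 that were 2-fold lower than in cluster 2. They were chosen for holding the motif marked below, which 6 of the 16 genes with a stretch held in these 120 bases and 10 did not, Jun, Klf2 and Zfp36 among them. Each line gives 120 bases upstream of the annotated start, from the RefSeq promoter table for GRCm38.p6, written 5′ to 3′ on the strand of the gene, with the core TGACG of a cyclic AMP response element, or its reverse complement CGTCA, in capitals.
Fos, chr12:85473770-85473889, plus strand: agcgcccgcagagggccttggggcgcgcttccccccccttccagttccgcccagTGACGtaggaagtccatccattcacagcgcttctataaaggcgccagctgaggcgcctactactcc
Nr4a1, chr15:101266726-101266845, plus strand: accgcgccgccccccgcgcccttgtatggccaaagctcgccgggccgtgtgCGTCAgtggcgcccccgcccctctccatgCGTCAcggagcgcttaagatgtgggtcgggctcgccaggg
Fosb, chr7:19310046-19310165, minus strand: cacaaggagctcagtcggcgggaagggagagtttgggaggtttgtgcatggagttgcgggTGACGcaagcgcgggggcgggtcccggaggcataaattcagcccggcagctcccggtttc
Junb, chr8:84978749-84978868, minus strand: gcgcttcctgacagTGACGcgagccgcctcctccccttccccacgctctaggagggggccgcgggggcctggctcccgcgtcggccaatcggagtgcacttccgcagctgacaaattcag
Atf3, chr1:191183334-191183453, minus strand: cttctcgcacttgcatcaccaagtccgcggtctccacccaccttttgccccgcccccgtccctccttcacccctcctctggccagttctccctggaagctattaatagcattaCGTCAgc

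In windows of 300 bases around the start, searched on both strands, TGACG occurred in 10 of the 16 immediate early genes with a promoter in the table (62.5%). It occurred in 43 of 85 genes (50.6%) of those 2-fold lower than in cluster 2, in 37.0% of the 8743 genes tested that had a promoter, in 23.0% of all 27025 promoters and in 2 of 19 homeostatic genes (10.5%). The full palindrome TGACGTCA, which contains TGACG, occurred in 2 of the 16 (12.5%), in 8 of the 85 (9.41%) and in 3.77% of tested genes. The kappaB site, to which NF-kB binds, occurred in 6 of 12 cytokine and NF-kB genes (50%), 4 of 16 immediate early genes (25.0%), 14 of the 85 (16.5%), 6.16% of tested genes and 0 of 19 homeostatic genes. TGACG occurred in 4 of the 12 cytokine and NF-kB genes (33.3%). These are matches of letters and not measured binding.

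Against cluster 3, compared in the 12 AppSAA mice, all 31 plaque-associated genes were lower in every mouse (median -2.25), beside 1766 of all 11201 genes (15.8%). In the other direction, 1305 genes (11.7%) were higher in every mouse. With UMI totals as the scale all 31 were still lower in every mouse, beside 947 of all genes, and 3348 genes were higher. The plaque-associated genes included Cst7 at a log2 ratio of -4.33, Clec7a at -3.68, Apoe at -3.41, Tyrobp at -1.36 and Trem2 at -0.99. Tmem119 was higher (1.48). Of 11201 genes, 166 (1.48%) were 2-fold higher and 619 (5.53%) 2-fold lower, 28 of the latter from the plaque-associated list. With UMI totals as the scale these became 450 and 401, and the median of all genes moved by 0.32. Against cluster 1, 115 of 10504 genes (1.09%) were 2-fold higher and 358 (3.41%) lower, or 207 and 292 with UMI totals. At any size 847 (8.06%) were higher and 1213 (11.5%) lower in all mice, a balance that turned with UMI totals, to 1296 and 899. The homeostatic list (24 genes higher in all mice, median 0.61), the interferon list (17 lower, -1.61) and the cell cycle list (16 of 24 lower, -2.11) differed there. Immediate early genes (17 of 19 lower, median -1.98), cytokine and NF-kB genes (15 of 18, -1.88), plaque-associated genes (20 of 31, -0.84), glycolysis genes (12 of 15, -1.19), nuclear oxidative phosphorylation genes (26 of 37, -0.52) and ribosome biogenesis genes (14 of 20, -1.07) were lower in all mice there as well.

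Within cluster 0 the groups were compared on counts summed per mouse over 11730 genes with edgeR's quasi-likelihood test, Benjamini-Hochberg adjusted over all genes tested. These contrasts cover cells already assigned alike by their expression. The sums rest on 38 to 191 cells per mouse after ATV:4D9 and on 845 to 1929 cells in the other groups. Few genes passed the threshold in this fit, which has no term for the pool. Between AppSAA and WT mice given ATV:ISO, 28 genes rose (0.239% of those tested) and 4 fell (0.0341%), 32 in all (0.273%). With ATV:4D9, 71 rose (0.605%) and 22 fell (0.188%) in WT mice, 93 in all (0.793%). In AppSAA mice, 59 rose (0.503%) and 16 fell (0.136%) from ATV:ISO, 75 in all (0.639%), and 54 rose (0.46%) and 12 fell (0.102%) from 4D9, 66 in all (0.563%). The mice of a pool were captured together, so the pool was also taken as a term in the fit. These counts were then 597 (402 higher, 195 lower), 861 (489 and 372), 643 (405 and 238) and 609 (390 and 219). They included all 32, all 93, 74 of the 75 and all 66 of the genes above. These counts over all 11730 genes are the background against which list counts with the pool as a term stand.

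The mitochondrial share of UMIs in cluster 0 tended to be higher with ATV:4D9 than with ATV:ISO. Its median per mouse ran from 1.01 to 1.53% in WT ATV:ISO mice and from 1.12 to 1.76% in WT ATV:4D9 mice, and from 1.04 to 1.61% in AppSAA ATV:ISO mice and from 1.11 to 2.05% in AppSAA ATV:4D9 mice. It was higher with ATV:4D9 in 4 of 4 pools in both genotypes, although the groups overlapped and no test of this share was run. Of 13 mitochondrially encoded genes edgeR called 0 in each genotype, with 1 in WT and 4 in AppSAA mice at an unadjusted p under 0.05, DESeq2 called 0 and 1, and limma-voom 0. Of these genes 6 were higher in WT and 10 in AppSAA mice with the pool as a term. The part of the mitochondrial share in the calls with ATV:4D9 was not tested.

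Given without the transport vehicle, 4D9 changed 0 genes (0%) in edgeR in cluster 0 of AppSAA mice. At an unadjusted p under 0.05 the count was 74 of 11730, and DESeq2, limma-voom and the fit with the pool as a term also called 0. Marker levels lay side by side, with P2ry12 at 2967 ± 233 CPM after ATV:ISO and 2908 ± 117 CPM after 4D9.

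P2ry12 itself was lower in the cluster 0 cells that remained in AppSAA mice after ATV:4D9. It was at 3202, 3306, 3467 and 3225 CPM in WT ATV:ISO mice of pools 1 to 4, 2930, 2807, 3109 and 2930 in WT ATV:4D9 mice, 2813, 2738, 3075 and 3242 in AppSAA ATV:ISO mice, and 2788, 2831, 2979 and 3033 in AppSAA 4D9 mice. In AppSAA ATV:4D9 mice it was at 1610, 2294, 2190 and 2004 CPM, below every one of the other 16 mice. It fell by 0.49 on the log2 scale from AppSAA ATV:ISO (SE 0.09, edgeR adjusted p = 0.00495), and this call held without any 1 mouse. It was -0.46 from 4D9 (adjusted p = 0.00834) and -0.47 from WT ATV:4D9 (adjusted p = 0.00868). Without the AppSAA ATV:4D9 mouse of pool 1, which had the lowest level and the fewest UMIs per cell, these had adjusted p of 0.0589 and 0.0703, and the last also missed the threshold without the pool 4 mouse of that group. In WT mice the change with ATV:4D9 was -0.14 (adjusted p = 0.619), and the difference between the AppSAA and WT changes was -0.36 (adjusted p = 0.938). This difference was -0.34 and passed with the pool as a term (edgeR adjusted p = 0.0402). DESeq2 gave an adjusted p of 0.0532 and limma-voom 0.948.

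Maf went the same way. It was at 665, 711, 827 and 877 CPM in AppSAA ATV:ISO mice, 708, 773, 886 and 826 in AppSAA 4D9 mice, and 395, 564, 590 and 478 in AppSAA ATV:4D9 mice, with no overlap between the last group and the first 2. It fell by 0.59 from 4D9 (SE 0.11, edgeR adjusted p = 0.00364), also without any 1 mouse, and by 0.54 from ATV:ISO (adjusted p = 0.00809), a call lost in 3 of 8 fits that left out 1 mouse, at an adjusted p of up to 0.0788 without the AppSAA ATV:4D9 mouse of pool 4. In WT mice it was at 811, 963, 1005 and 1062 CPM with ATV:ISO and 583, 782, 784 and 770 with ATV:4D9, a log2 change of -0.37 that missed the threshold (adjusted p = 0.0825) and passed it with the pool as a term (edgeR adjusted p = 1.57e-07). The AppSAA to WT difference with ATV:ISO was -0.28 (adjusted p = 0.546, 3.01e-06 with the pool). Crybb1 was at 482, 366, 377 and 335 CPM in AppSAA ATV:ISO mice and 292, 295, 285 and 198 in AppSAA ATV:4D9 mice, a log2 change of -0.52 (adjusted p = 0.102, and 0.00703 with the pool). Slc2a5 passed in none of the 6 contrasts between groups, at 254 to 366 CPM in AppSAA ATV:4D9 mice and 332 to 378 in AppSAA ATV:ISO mice. It was lower in AppSAA than in WT mice given ATV:4D9 with the pool as a term (log2 change -0.30, edgeR adjusted p = 0.00378), as were the other 3 markers.

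**Figure D5:**
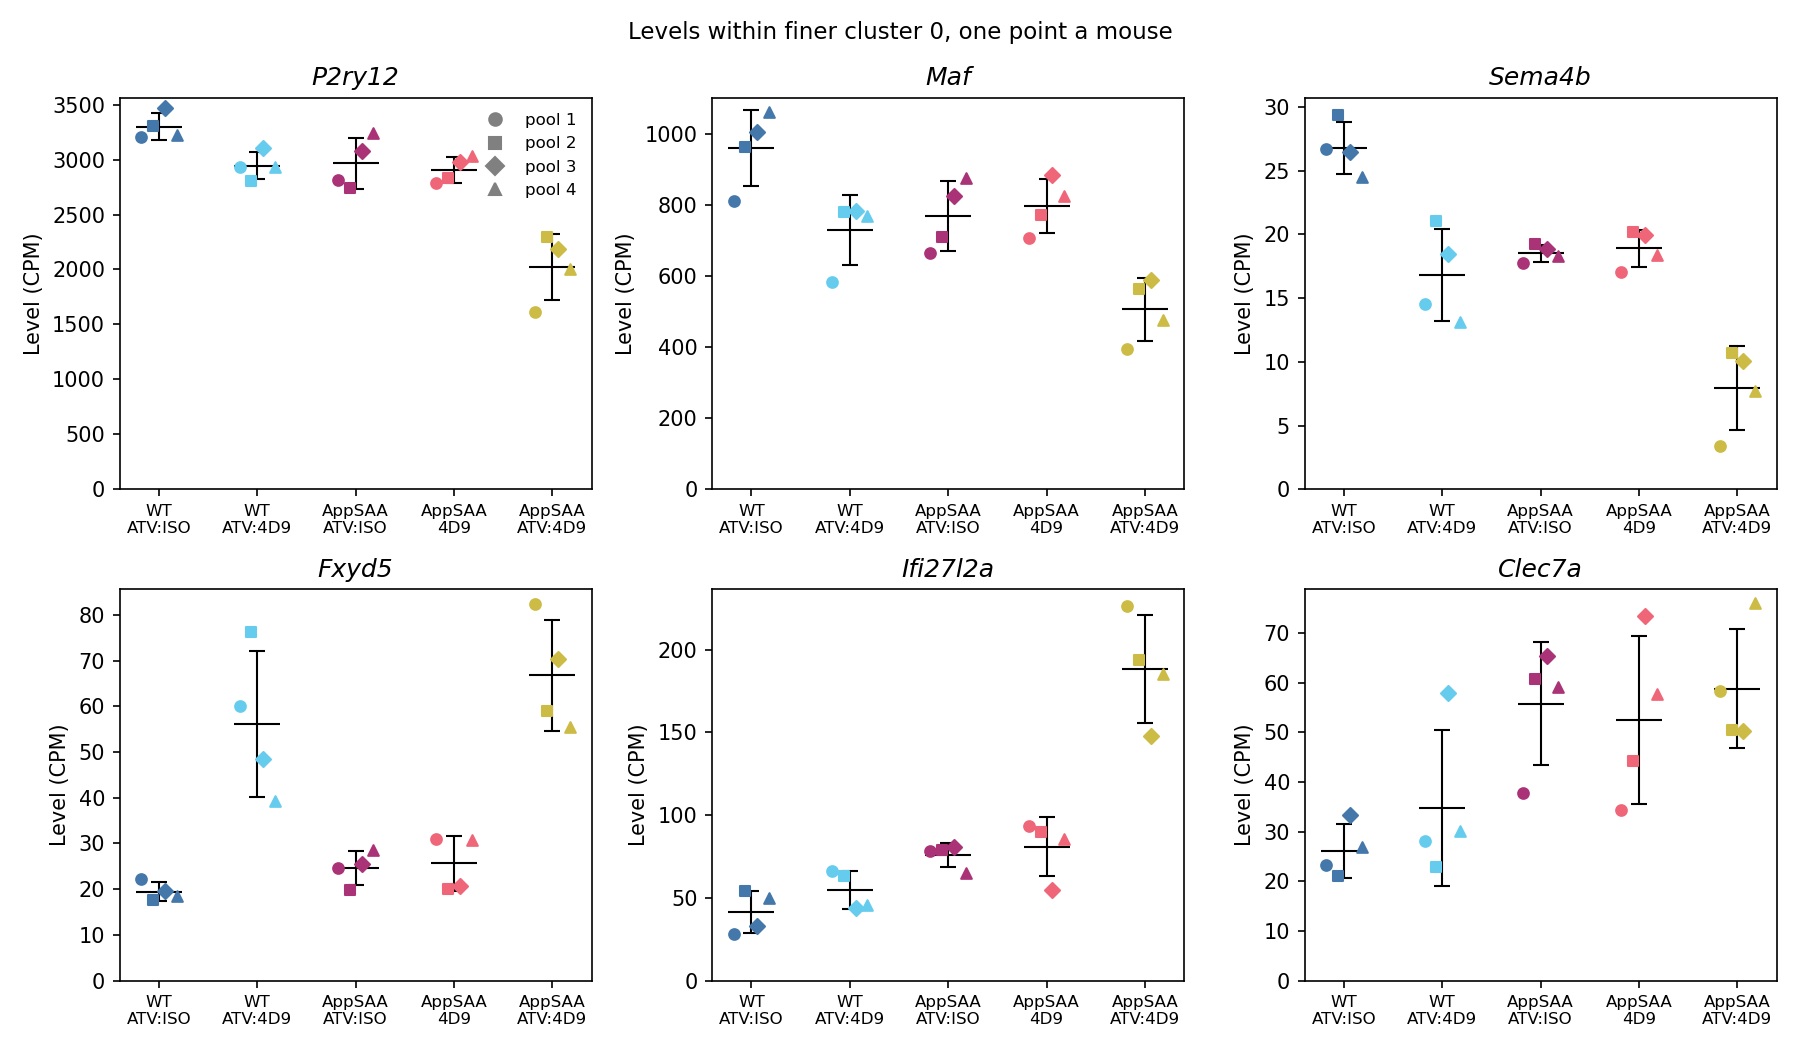
CPM of 6 genes in finer cluster 0 of each mouse, by group; each point is 1 mouse, marked by pool, with the group mean and SD. P2ry12 in AppSAA ATV:4D9 mice lies between 1610 and 2294 CPM, below all other mice, and Fxyd5 lies between 39.3 and 82.4 CPM in the 8 ATV:4D9 mice and at or below 30.9 CPM in the other 12.

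The rest of the homeostatic list showed few calls in cluster 0 without the pool as a term and more with it. From AppSAA ATV:ISO to ATV:4D9, 1 of 28 genes fell, P2ry12, and the list's median change was -0.11 beside -0.03 for all genes. With the pool as a term 9 of the 28 were lower and 2 higher, beside 238 lower and 405 higher of all 11730 genes. Between AppSAA and WT mice given ATV:ISO 7 were lower and 2 higher with that term, beside 195 and 402 of all genes. There edgeR without that term called 0, with 2 at an unadjusted p under 0.05 and 0 in DESeq2 and limma-voom. In WT mice 1 of 28 rose with ATV:4D9, the axon guidance gene Nav3 (log2 change 0.53, edgeR adjusted p = 0.0231), while 5 were higher and 3 lower with the pool as a term. Of the identity factors, Cebpa had a change of -0.53 and Bhlhe41 of 0.44 in WT mice with ATV:4D9 (adjusted p = 0.0289 and 0.0408), and both calls were lost in at least 6 of 8 fits that left out 1 mouse. In the same contrast 1 of the 14 factors was higher and 5 were lower with the pool as a term, and DESeq2 called 4. Immediate early genes (19 tested) and cytokine and NF-kB genes (18 tested) gave 0 calls in edgeR in every contrast between groups. At an unadjusted p under 0.05 the contrasts had 0 to 3 immediate early and 0 to 5 cytokine and NF-kB genes, DESeq2 called 0 to 1 and 0 to 2, and limma-voom 0 to 1 and 0. With the pool as a term, 5 immediate early and 7 cytokine and NF-kB genes were higher in AppSAA than in WT mice given ATV:ISO, and 0 and 6 were higher after ATV:4D9 than after ATV:ISO in AppSAA mice.

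Sema4b, among the genes highest in cluster 0 relative to other cells, had a lower mean in each other group than in WT ATV:ISO mice. It was at 26.7, 29.4, 26.5 and 24.5 CPM in WT ATV:ISO mice and 17.7, 19.2, 18.8 and 18.3 in AppSAA ATV:ISO mice, without overlap. It fell by 0.49 on the log2 scale between them (edgeR adjusted p = 0.0246). In AppSAA ATV:4D9 mice it was at 3.43, 10.7, 10.1 and 7.68 CPM, and it fell by 1.01 from ATV:ISO (adjusted p = 0.0249). The cluster 0 sums of pools 1 and 3 in this group held 291284 and 298132 UMIs, so its levels there rest on few UMIs. Both calls were close to the threshold. The first was lost in 7 of 8 fits that left out 1 mouse, at an adjusted p of up to 0.187 without the WT ATV:ISO mouse of pool 2, and the second in 4 of 8, at up to 0.255 without the AppSAA ATV:4D9 mouse of pool 4.

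Fxyd5 (chr7:31032722-31042481, minus strand), which encodes a regulator of the sodium pump, rose with ATV:4D9 in both genotypes. It was at 22.2, 17.6, 19.6 and 18.5 CPM in WT ATV:ISO mice and 60.1, 76.3, 48.6 and 39.3 in WT ATV:4D9 mice. In AppSAA mice it was at 24.7, 19.7, 25.6 and 28.7 CPM with ATV:ISO, 30.9, 20.1, 20.8 and 30.8 with 4D9, and 82.4, 59.1, 70.4 and 55.5 with ATV:4D9. No ATV:4D9 mouse overlapped with any other mouse. The log2 change was 1.63 in WT mice (SE 0.20, edgeR adjusted p = 2.00e-05) and 1.39 in AppSAA mice (SE 0.20, adjusted p = 0.000319), and neither call depended on 1 mouse.

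AI506816, a transcript with no assigned function in the files, was at 34.4, 27.1, 30.3 and 33.9 CPM in WT ATV:ISO mice and 80.5, 81.6, 109 and 72.1 in WT ATV:4D9 mice, without overlap (log2 change 1.45, SE 0.15, edgeR adjusted p = 7.03e-07). Ptafr, the receptor for platelet-activating factor, was at 108, 138, 128 and 133 CPM with ATV:ISO in WT mice and 59.2, 68.4, 74.0 and 89.2 with ATV:4D9 (-0.78, adjusted p = 0.000994). Lsp1, an actin-binding protein of leukocytes, had a change of -0.86 (adjusted p = 0.0012). Cdkn1c, which encodes an inhibitor of the cell cycle, was at 25.5 and 10.6 CPM (-1.13, adjusted p = 0.0204), a call lost without any 1 of the 4 ATV:4D9 mice at an adjusted p of up to 0.0806. In AppSAA mice it was at 24.7 CPM with ATV:ISO and 29.3 CPM with ATV:4D9. After ATV:4D9 it was higher in AppSAA than in WT mice (1.31, edgeR adjusted p = 0.0386), a call lost in 7 of 8 fits that left out 1 mouse. The glycolysis list had 2 of 16 genes up in WT mice, Pkm (0.73, adjusted p = 0.000991) and the lactate exporter Slc16a3 (0.71, adjusted p = 0.0379), or 6 with the pool as a term.

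Interferon-stimulated genes gave upward calls in AppSAA cluster 0 cells and further ones with ATV:4D9. Between AppSAA and WT mice given ATV:ISO, 5 of 23 rose, namely Rtp4 (log2 change 0.79), Ifi204 (0.84), Slfn5 (0.91), Oasl2 (1.01) and Slfn2 (0.68), with a list median of 0.60. In AppSAA mice 8 of 23 rose from ATV:ISO to ATV:4D9 (median 0.74) and 12 of 23 from 4D9 to ATV:4D9 (median 0.95). The 8 were Ifi27l2a, Usp18, Ifitm3, Isg15, Slfn5, Slfn2, Rtp4 and Xaf1. The Usp18 call was lost in 2 of 8 fits that left out 1 mouse, at an adjusted p of up to 0.163 without the AppSAA ATV:4D9 mouse of pool 4. In WT mice 0 of 23 passed with ATV:4D9 in edgeR, at a median of 0.33, with 6 at an unadjusted p under 0.05, 1 in DESeq2 and 0 in limma-voom. The upward calls with the pool as a term were 16, 15, 16 and, in WT mice, 2 of 23. The difference between the AppSAA and WT changes with ATV:4D9 had 0 calls among the 23 in edgeR. At an unadjusted p under 0.05 it had 4, and DESeq2, limma-voom and the fit with the pool as a term called 0.

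Ifi27l2a, an interferon-induced gene, was at 28.1, 54.4, 33.0 and 49.8 CPM in WT ATV:ISO mice, 65.9, 63.2, 43.9 and 45.9 in WT ATV:4D9 mice and 78.1, 78.9, 80.7 and 65.1 in AppSAA ATV:ISO mice. It was at 227, 194, 148 and 185 CPM in AppSAA ATV:4D9 mice, above every other mouse. It rose by 1.38 on the log2 scale from AppSAA ATV:ISO (SE 0.22, edgeR adjusted p = 0.00318) and by 1.78 from WT ATV:4D9 (adjusted p = 0.00194). Rtp4, which also responds to interferon, was at 28.6, 27.7, 33.4 and 23.5 CPM with ATV:ISO in AppSAA mice, 25.4, 25.6, 21.0 and 22.3 with 4D9 and 75.5, 54.8, 63.7 and 46.1 with ATV:4D9. Its change from 4D9 was 1.30 (SE 0.19, adjusted p = 0.000372). None of these 3 calls was lost when 1 mouse was left out. The interaction of genotype and ATV:4D9, which tests whether the change with ATV:4D9 differed between AppSAA and WT mice, called 0 of 11730 genes (0%) in edgeR, with 559 at an unadjusted p under 0.05, 8 in DESeq2, 0 in limma-voom and 47 with the pool as a term.

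Plaque-associated genes gave 2 or 3 calls of 31 per contrast, upward in each, other than 0 between 4D9 and ATV:ISO in AppSAA mice, where 0 also had an unadjusted p under 0.05 and DESeq2 and limma-voom called 0. With the pool as a term 18 were higher in AppSAA than in WT mice given ATV:ISO, 10 rose with ATV:4D9 in WT mice, and 12 rose and 1 fell from ATV:ISO to ATV:4D9 in AppSAA mice. Clec7a was at 23.2, 21.0, 33.4 and 26.9 CPM in WT ATV:ISO mice and 37.7, 60.7, 65.4 and 59.2 in AppSAA ATV:ISO mice, without overlap (log2 change 1.13, SE 0.19, edgeR adjusted p = 0.00501). The chemokine Ccl6 (0.70) and the tetraspanin Cd9 (0.40) rose between the same groups. Cst7 was at 89.1, 98.6, 135 and 116 CPM with ATV:ISO in AppSAA mice and 251, 206, 242 and 311 with ATV:4D9, and it rose by 1.27 (SE 0.20, adjusted p = 0.00201). Lysozyme (Lyz2) rose by 0.56 between these groups and by 0.79 from WT ATV:4D9 to AppSAA ATV:4D9 mice. Even after these rises the mean of Cst7 in cluster 0 of AppSAA ATV:4D9 mice, 252 CPM, lay below the mean of 1054 CPM in the other cells over all mice.

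The class I MHC genes H2-Q6 and H2-Q7 had the largest rises among the genes named between AppSAA and WT mice given ATV:ISO. Those were called genes without overlap between the groups and with a mean of at least 10 CPM in either. H2-Q7 was at 4.99, 8.80, 9.65 and 12.6 CPM in WT ATV:ISO mice and 23.7, 20.3, 61.5 and 29.3 in AppSAA ATV:ISO mice (log2 change 1.92, SE 0.31, edgeR adjusted p = 0.00682). H2-Q6 was at 4.15 and 16.3 CPM (1.98, adjusted p = 0.000116). These genes are near-identical copies, so reads may have been split between them or dropped and their separate values are uncertain. Pdcd1, the gene of the checkpoint receptor PD-1, was at 4.76 ± 1.11 and 12 ± 2.65 CPM (1.36, adjusted p = 0.000388).

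Between the genotypes after ATV:4D9, 55 genes rose (0.469%) and 8 fell (0.0682%) in AppSAA against WT mice, 63 in all (0.537%), or 301 with the pool as a term, of which 202 were higher. Ifitm3, an antiviral membrane protein, was at 53.6 ± 16.9 CPM in WT and 161 ± 38.0 CPM in AppSAA mice (log2 change 1.59, edgeR adjusted p = 0.00776). Clec2d, which encodes a ligand of a natural killer cell receptor, was at 24.2, 21.9, 16.2 and 24.9 CPM in WT mice and 51.5, 56.2, 50.3 and 54.6 CPM in AppSAA mice (1.32, adjusted p = 0.00229). The calls for Ifi27l2a, Ifitm3 and Clec2d did not depend on 1 mouse. P2ry13, the other ADP receptor of microglia, was at 553 ± 59.3 and 377 ± 20.7 CPM (-0.47, adjusted p = 0.0292), a call lost in 7 of 8 fits that left out 1 mouse, at an adjusted p of up to 0.105 without the AppSAA ATV:4D9 mouse of pool 4.

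The counts of genes called depended on single mice. Between AppSAA and WT mice given ATV:ISO the count was 19 without the AppSAA mouse of pool 3. For ATV:4D9 in WT mice it was 34 without the ATV:4D9 mouse of pool 2, 48 and 53 without those of pools 1 and 4, and 51, 44 and 51 without the ATV:ISO mice of pools 2, 3 and 4. For ATV:4D9 against ATV:ISO in AppSAA mice it was 32 and 23 without the ATV:4D9 mice of pools 1 and 4, and 47 and 46 without the ATV:ISO mice of pools 3 and 4. Against 4D9 it was 34 and 25 without the same ATV:4D9 mice. Between the genotypes after ATV:4D9 it was 30 and 17 without the AppSAA mice of pools 1 and 4, and 27 and 36 without the WT mice of pools 3 and 4.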

How the data were processed

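Brain myeloid cells of 20 mice were profiled by droplet single-cell RNA sequencing in 4 pools, with sample tags for the mice. The authors deposited 1 matrix of UMI counts per gene and cell, not normalised, with cell annotations. Per the labels, Cell Ranger 6.1.1 and mm10 were used. The deposited percent of mitochondrial UMIs, the mouse, pool, group and cluster numbers were the authors' own, from Seurat on integrated data. How doublets and poor cells were removed was not given in the sources used here, and no doublet caller was run. The matrix matched the deposited UMI totals, gene numbers and mitochondrial percent for all 74758 cells. Of 74212 barcode sequences 543 occurred in more than 1 pool, and 225 cluster 0 cells carried such a sequence.

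Counts of cluster 0 and of other cells were summed per mouse (sums of at least 20 cells), to 291284 UMIs in the smallest cluster 0 sum. Printed levels are CPM of these sums. Log2 ratios within mice used TMM scaling and a prior count of 2, and a gene was past the fold at a mean log2 ratio of 1 with the same sign in every mouse. Groups were compared with edgeR 4.0.16 (quasi-likelihood, filterByExpr, TMM, all 5 groups in 1 fit, R 4.3.3), and the text's adjusted p-values for genes come from this fit unless another is named. Shares were compared with exact permutation tests over mice, and SciPy 1.17.1 gave the Wilson intervals. DESeq2 1.42.0, limma-voom (limma 3.58.1), other scaling and filters, a minimum of 50 cells, cells of 1000 to 25000 UMIs, 38 cells per mouse and leaving out each mouse were alternatives. The tests were tried on simulated counts. The study's methods name limma-voom on such sums and no pool term is given there, and the reported edgeR fit has none. Mice share a pool by the labels. Deviations from the group means correlated at a median of 0.161 over 40 same-pool pairs (0.0467 to 0.500) and -0.0604 over 120 other pairs of different groups. All 20 mice correlated best on average with the mice of their own pool.

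Named genes were the 4 markers, the genes with the largest and smallest mean ratio (10 each way against other cells, 5 against cluster 2, mean CPM of at least 10), up to 5 called genes each way per contrast without overlap between groups, the most abundant members of each list, and the identity factors and purinergic receptors. Other list members and Stab1 were named after their values were seen. A few list members are not reported here by name. The members and lists were chosen with earlier results of these data known. Promoters were matched by symbol to RefSeq (GRCm38.p6), gene positions to a GRCm38 annotation.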

Additional observations from a re-analysis of the deposited data

Results flagged for a closer look

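The drop in the share of cluster 0 with ATV:4D9 differed between AppSAA and WT mice by 26.9 percentage points (exact permutation of within-pool differences taken as unpaired, p = 0.0286, and 0.125, the smallest possible, with exchange within pools). The drop was -28.6 points in AppSAA mice and -55.5 points in WT mice, from starting means of 31.1% and 58.3%.

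In 8 of 230 groups of 4 mice examined, 1 mouse stood apart from the other 3 by Dixon's criterion, which chance alone meets in about 1 of 20 groups. Crybb1 was at 198 CPM in the AppSAA ATV:4D9 mouse of pool 4, below the others of its group, and Maf was at 583 CPM in the WT ATV:4D9 mouse of pool 1. Clec4a3, a C-type lectin gene, was at 69.5 CPM in the WT ATV:4D9 mouse of pool 4 and at 101 CPM in the AppSAA 4D9 mouse of pool 3. H2-Q7 was at 9.18 CPM in the WT ATV:4D9 mouse of pool 4. Ifi27l2a was at 65.1 CPM in the AppSAA ATV:ISO mouse of pool 4, Tnfsf12, a TNF family ligand, at 75.8 CPM in that of pool 1, and Usp2, a deubiquitinase gene, at 87.2 CPM in the AppSAA ATV:4D9 mouse of pool 3.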

How the results depend on the processing

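With the replicate block, that is, labels exchanged within pools only, the share differences of -27.1 (AppSAA against WT, ATV:ISO), -55.5 (ATV:4D9 in WT), -28.6 and -28.1 points (ATV:4D9 against ATV:ISO and 4D9 in AppSAA) had an exact p of 0.125, the smallest possible. As shares of clusters 0 and 2 only they were -4.31, -15.7, -6.29 and -6.26 points, past the threshold in none after adjustment. The genotype difference in the drop was 25.6 to 29.4 points without each pool, where p could not go below 0.1.

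Counts of genes called within cluster 0 are given in the order AppSAA against WT with ATV:ISO, ATV:4D9 in WT, ATV:4D9 against ATV:ISO and against 4D9 in AppSAA, and AppSAA against WT with ATV:4D9. With the replicate block (pool as a term) they were 597, 861, 643, 609 and 301, and the block ended no call for a named gene. With DESeq2 they were 58, 211, 216, 196 and 148. Thinned by a random draw to 38 cells per mouse, where 5347 genes were tested in place of 11730, they were 3, 18, 41, 24 and 63. limma-voom gave 37 for the last. Leaving out 1 mouse gave 19 to 35, 34 to 122, 23 to 84, 25 to 87 and 17 to 86. The interaction had 8 calls with DESeq2 and 47 with the block.

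Genes 2-fold higher than in other cells numbered 18 with cells of 1000 to 25000 UMIs, 0 against cluster 2, 6 in WT ATV:ISO mice, 146 in AppSAA ATV:ISO mice and 109 with UMI totals as the scale, an alternative chosen after seeing the data. Genes 2-fold lower numbered 123 against cluster 2, and 307 and 949 in those mice. Leaving out a pool gave 42 to 52 higher and 487 to 529 lower. The same sign was then needed in 15 mice rather than 20, and in 4 mice where a group was taken alone, so the rule was looser. Mki67 had a mean log2 ratio of 0.11 against cluster 2. The cause of these changes was not tested. The ATV:4D9 groups have the fewest cluster 0 cells, so their contrasts have the least depth.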
